A study of Mus musculus with 10 samples.

Results

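Mitochondrial ribosomal proteins are the nuclear-encoded parts of the ribosome inside mitochondria. They were taken here as every row of the authors' deposited table whose gene symbol begins with Mrpl or Mrps followed by a number. The rule found 77 of 24421 genes, 48 with Mrpl and 29 with Mrps symbols, and all 77 were among the 16050 genes that the authors tested. The study sequenced poly(A)-selected RNA of olfactory epithelium, the sensory tissue of the nose, from untreated mice of the C57BL/6 background at 6 months of age. The groups were 6 libraries labelled Apoe4 and 4 labelled Apoe3, after human alleles of APOE, which encodes a lipid carrier, and the comparison asks what differs between them. The labels do not say how the alleles were introduced, which cells express them or what sex the mice were, and the submitters call the libraries biological replicates.

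The mitochondrial ribosome has a large and a small subunit and makes a handful of inner-membrane proteins of the respiratory chain and ATP synthase from messages encoded by mitochondrial DNA. Its RNA is transcribed inside the organelle, whereas its proteins are made in the cytosol and imported. Some of these proteins have counterparts in bacterial ribosomes, and others are found in mitochondria alone. By this textbook division 46 of the 77 genes have a bacterial counterpart and 30 are specific to mitochondria. Mrps18a and Mrps30 sit in the large subunit in spite of their symbols, which gives 50 large-subunit and 26 small-subunit genes. The remaining gene, Mrps36, is today known as a part of the 2-oxoglutarate dehydrogenase complex of the citrate cycle, not of the ribosome. Neurons with long axons, such as olfactory sensory neurons, depend on mitochondria for ATP.

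The table gives 1 mean and 1 fold change per gene, so no value per library can be shown. Depth was about 14900000 to 20100000 assigned reads per library, and size factors ran from 0.891 to 1.16 in Apoe4 and from 0.859 to 1.14 in Apoe3. The defining markers of the tissue were high, with a mean normalized count of 113676 for Omp of mature olfactory neurons and 63586 for Cyp2g1 of supporting cells. Skeletal muscle markers were near 0, with mean normalized counts of 44.9 or less for 8 of 8 genes. The row for Apoe, the gene of the study, had a mean normalized count of 249 and a log2 fold change of -0.16 (adjusted p = 0.579, authors' deposited table), and whether reads of the human alleles were counted there is not known. Xist, the RNA that silences 1 X chromosome in female cells, had a log2 fold change of 6.41 in Apoe4 against Apoe3 per the authors' deposited table, and the Y-linked Ddx3y stood at -3.50 there. The labels give no sex, and in every result below the allele and this sex-linked difference cannot be told apart. Nnt, a mitochondrial gene that C57BL/6J mice lack in intact form, had a log2 fold change of -0.65 in the same table. A substrain difference between the groups cannot be told apart from the allele either, and was not tested. All 77 genes lie on autosomes.

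The promoters of the genes that carry the main findings are shown first. They are the 250 bases before the start site of Mrps9 and Mrps18c, the 2 genes that passed the test, and of Mrpl44, which starts inside Wdfy1, the autosomal gene with the most negative fold of all tested genes. Capitals mark letters of known motifs on either strand, with an E-box (CACGTG) beside an ETS motif (CCGGAAG, read by GABPA) in Mrps18c and the core letters of an NRF1 motif (TGCGCA) in Mrpl44. The sequences are from RefSeq, build GRCm38.p6, plus strand, at chr1:42850983-42851232, chr5:100798509-100798758 and chr1:79775768-79776017. GENCODE places the outermost start of Mrps18c inside the window shown for it. The window shown for Mrps9 held none of the 5 motifs searched, but the 50 bases after its start, which were also searched, held the NRF1 core letters, and Mrpl4, next by p, is named only.
Mrps9: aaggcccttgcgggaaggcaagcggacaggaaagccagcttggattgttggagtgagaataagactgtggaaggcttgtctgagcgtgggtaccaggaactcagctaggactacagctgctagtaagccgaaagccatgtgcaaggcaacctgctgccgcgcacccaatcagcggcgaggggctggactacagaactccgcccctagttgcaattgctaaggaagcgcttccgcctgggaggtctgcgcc
Mrps18c: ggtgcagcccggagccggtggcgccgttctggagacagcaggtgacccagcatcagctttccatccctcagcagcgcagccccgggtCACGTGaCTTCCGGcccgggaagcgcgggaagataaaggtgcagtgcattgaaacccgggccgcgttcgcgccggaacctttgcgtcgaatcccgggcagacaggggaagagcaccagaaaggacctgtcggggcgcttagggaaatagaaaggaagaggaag
Mrpl44: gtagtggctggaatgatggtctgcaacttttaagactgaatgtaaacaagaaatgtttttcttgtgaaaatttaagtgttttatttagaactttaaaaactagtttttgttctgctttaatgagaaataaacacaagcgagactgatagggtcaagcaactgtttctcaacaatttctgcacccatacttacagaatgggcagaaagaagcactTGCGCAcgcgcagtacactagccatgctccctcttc

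The mitochondrial ribosomal protein genes stood slightly lower in Apoe4 than in Apoe3 almost throughout the family. Their median log2 fold change was -0.13 per the authors' deposited table, against 0.00 over all tested genes, and 75 of the 77 had a negative value, against 48.9% of all tested genes. Single genes differed by little, and 2 of the 77 fell at an adjusted p under 0.05, or 2.60%, against 0.455% of all tested genes lower and 0.779% changed either way. No member rose, against 0.324% of all tested genes. At an unadjusted p under 0.05, 22 members were lower, or 28.6%, against 5.76% of all tested genes, and 0 were higher, against 4.54%. In bulk tissue, fewer cells of a type and less RNA per cell cannot be told apart. The lower and upper quartiles of the members were -0.18 and -0.09, a spread about as wide as 1 member's standard error (median 0.088).

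**Figure D1:**
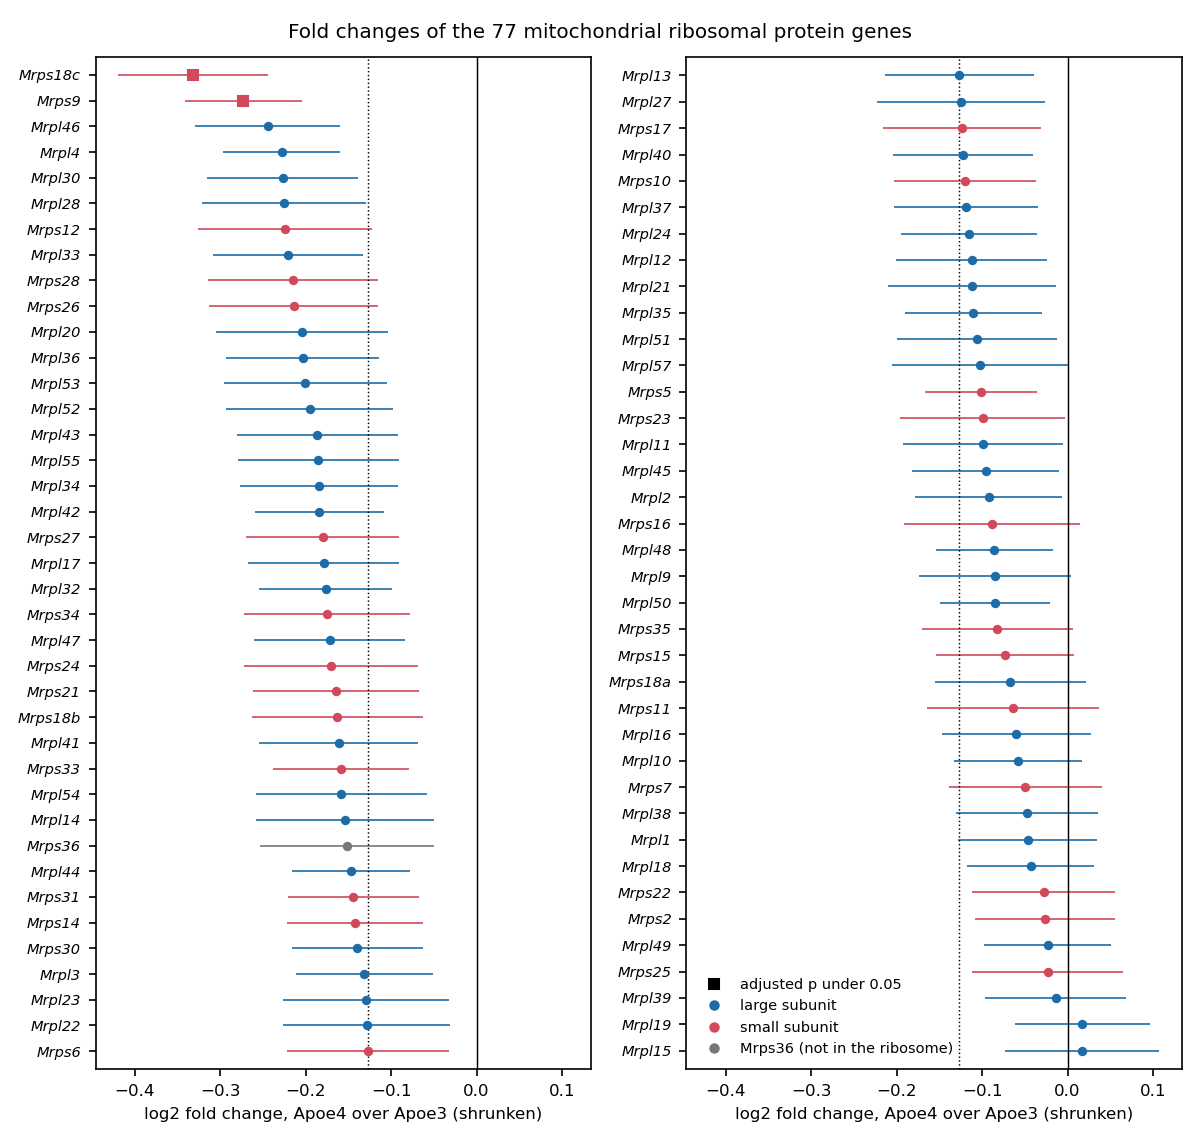
Log2 fold change of Apoe4 over Apoe3 per the authors' deposited table for each of the 77 genes, sorted from lowest to highest down the left and then the right panel. Bars are the deposited standard errors, squares are the 2 genes with an adjusted p under 0.05, the dotted line is the median of the 77, and 75 points lie below 0.

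Mrps9 is the counterpart of bacterial S9, a protein of the head of the small subunit that reaches towards the transfer RNA. The gene (chromosome 1, 42851233 to 42905683, GRCm38) had a mean normalized count of 504 over all libraries, which its fold change splits into about 460 in Apoe4 and 570 in Apoe3. In the authors' deposited table its log2 fold change was -0.27 (standard error 0.07, adjusted p = 0.0136, DESeq2 Wald test, 6 against 4 libraries). The deposited folds were shrunk towards 0, and undoing this approximately gave -0.31 with a 95% interval from -0.46 to -0.16, a level that fell by 19.4%. Mrps18c, the counterpart of bacterial S18 on the platform of the small subunit, had the most negative fold of the family. Its gene (chromosome 5, 100798627 to 100804471) had a mean of 441, or about 388 in Apoe4 and 521 in Apoe3. The log2 fold change per the authors' deposited table was -0.33 (standard error 0.09, adjusted p = 0.0251, same test), and without the shrinkage about -0.43 (95% interval -0.65 to -0.21). Both calls were lost once a general trend with transcript length, described below, was subtracted from the statistic (adjusted p = 0.126 for Mrps9 and 0.272 for Mrps18c).

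The next members by p did not pass. Mrpl4, the counterpart of a bacterial protein that lines the exit tunnel, stood at -0.23 per the authors' deposited table (adjusted p = 0.0912), with about 569 normalized counts in Apoe4 and 682 in Apoe3. Mrpl46, a mitochondria-specific protein of the central protuberance, was at -0.24 there (adjusted p = 0.201), with about 421 normalized counts in Apoe4 and 521 in Apoe3. The next genes by p with bacterial counterparts in the large subunit were Mrpl30 at -0.23, Mrpl33 at -0.22, Mrpl28 at -0.22, Mrpl36 at -0.20, Mrpl32 at -0.18 and Mrpl20 at -0.20 per the authors' deposited table; adjusted p ran from 0.307 to 0.472. The Mrpl32 protein is known for a maturation step, in which an inner-membrane protease trims it before it can join the ribosome. In the small subunit Mrps12, the counterpart of S12 of the decoding centre, was at -0.22, and Mrps28, related to bacterial S1, at -0.21 per the authors' deposited table (adjusted p = 0.419 and 0.436). The mitochondria-specific Mrpl42, Mrps26, Mrpl44 and Mrpl53 stood at -0.18, -0.21, -0.15 and -0.20 per the authors' deposited table; adjusted p ran from 0.350 to 0.451.

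The 4 highest folds of the family lay near 0. Mrpl15 and Mrpl19, both with bacterial counterparts, were the only 2 members with positive folds, each at 0.02 per the authors' deposited table (adjusted p = 0.967 and 0.961). Mrpl39, a mitochondria-specific protein related to tRNA synthetases, was at -0.01 and the small-subunit Mrps25 at -0.02 there (adjusted p = 0.975 and 0.954). The approximate 95% interval of the unshrunken log2 fold change was -0.21 to 0.26 for Mrpl15 and -0.22 to 0.18 for Mrpl39, so a change of the size seen in Mrps9 lay outside both intervals. Such intervals lay wholly below 0 in 22 of the 77 genes, against 924 of the 16050 tested genes. The 22 are the same members that were lower at an unadjusted p under 0.05. The intervals reached below -0.3 in 60 members, and the share over all genes was not computed for this.

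Genes of the large and of the small subunit had similar medians. The median log2 fold change per the authors' deposited table was -0.13 over the 50 large-subunit genes (48 negative, 15 lower at an unadjusted p under 0.05) and -0.13 over the 26 small-subunit genes (26 negative, 7 lower at an unadjusted p under 0.05). Both genes that passed belong to the small subunit and have bacterial counterparts. Genes with a bacterial counterpart had a median of -0.13 (44 of 46 negative) and mitochondria-specific genes also -0.13 (30 of 30 negative). These medians are descriptions, and no difference between the classes was tested.

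Members of 3 well-known sites of the ribosome are given next. In the stalk that binds translation factors, Mrpl10 stood at -0.06 and Mrpl12, which also binds the mitochondrial RNA polymerase, at -0.11 per the authors' deposited table (adjusted p = 0.840 and 0.705). Around the tunnel exit, where new proteins leave, Mrpl22 was at -0.13, Mrpl23 at -0.13, Mrpl24 at -0.11 and Mrpl47 at -0.17 per the authors' deposited table, and Mrpl45, which anchors the ribosome to the inner membrane, at -0.10, with adjusted p from 0.487 to 0.741. In the central protuberance Mrpl38 was at -0.05, Mrpl40 at -0.12 and Mrpl48 at -0.09 in that table beside Mrpl46 at -0.24 (adjusted p from 0.201 to 0.890). Mrps36, outside the ribosome, was at -0.15 (adjusted p = 0.632) per the authors' deposited table. The genes named for their sites were chosen with their values known and are not all members of those sites, so no site is summarized by them.

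Levels between genes were compared per kilobase of the principal coding transcript, as mean normalized counts over all 10 libraries. The members had a median of 369 normalized counts per kilobase, against 140 over all tested genes. They spanned 18.0-fold, with Mrpl52 at 1144, Mrpl33 at 1135, Mrps21 at 1010 and Mrpl27 at 999 normalized counts per kilobase at the top. At the bottom were Mrpl35 at 76.3, Mrpl15 at 74.3, Mrps25 at 69.3 and Mrpl47 at 63.6 normalized counts per kilobase. Without length, the means ran from 196 for Mrps36 to 1030 for Mrpl17, a range of 5.25-fold. The order per kilobase therefore rests in part on the annotated length, which is long for genes such as Mrps25 (6073 bases), and no spread over libraries is given for it. The 77 genes together made up 0.227% of all normalized counts.

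**Figure D2:**
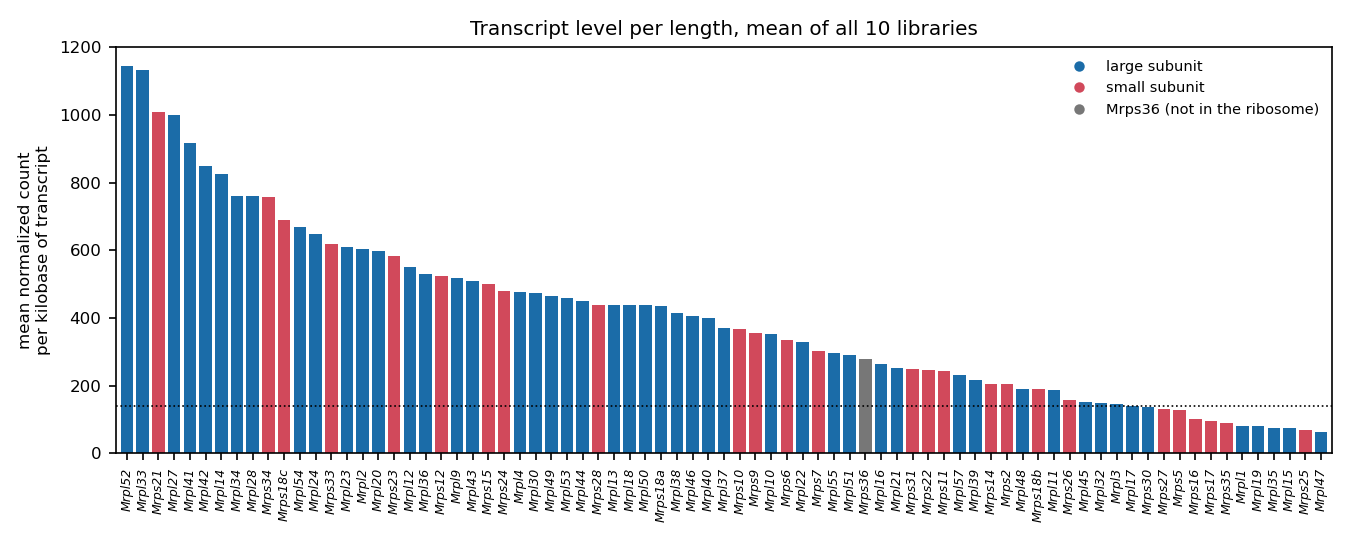
Mean normalized count per kilobase of transcript over all 10 libraries for each gene, from highest (Mrpl52, 1144) to lowest (Mrpl47, 63.6). Bar colours give the subunit, the dotted line is the median of all tested genes (140), and no error is shown because the table holds no values per library.

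The members share short transcripts, and short transcripts were lower in Apoe4 across the whole table. The principal transcript of the 77 genes had a median length of 1288 bases, against 2975 over all tested genes, and 49 of the 77 fell in the shortest 2 of 10 length bins. Over 15952 genes, Spearman's rho between transcript length and log2 fold change was 0.435, and over the 77 members it was 0.470. These are correlations across genes of the same 10 libraries, and genes are not independent replicates. In the bin of the shortest transcripts, up to 1230 bases, the median log2 fold change was -0.16 over 37 members and -0.09 over all 1597 genes. In the next bin, up to 1698 bases, it was -0.12 over 12 members and -0.06 over all genes. In the bin after it, up to 2108 bases, the 5 members and all genes were both at -0.05. In the bin from 2976 to 3472 bases, 6 of 6 members were below the median of the bin, at a median of -0.14 against 0.01.

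With the smooth trend on length subtracted, the family stood lower by a smaller step. The median of the members was then -0.08, against 0.00 over all tested genes, and 67 of 77 were negative, against 50.4%. At an unadjusted p under 0.05, 11 were lower, against 3.40% of all genes, and 0 higher, against 3.68%. No member passed the adjusted threshold in either direction, against 0.320% of genes lower and 0.320% higher. When the trend was fitted over the 6287 genes within the members' range of mean counts, the median was -0.06 and 64 of 77 were negative. Values over all genes of that range after this fit are not given. Before any trend was subtracted, the 6319 tested genes of that range had a median of -0.002, and 51.0% were negative. The GC content of the members' transcripts had a median of 50.7%.

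**Figure D3:**
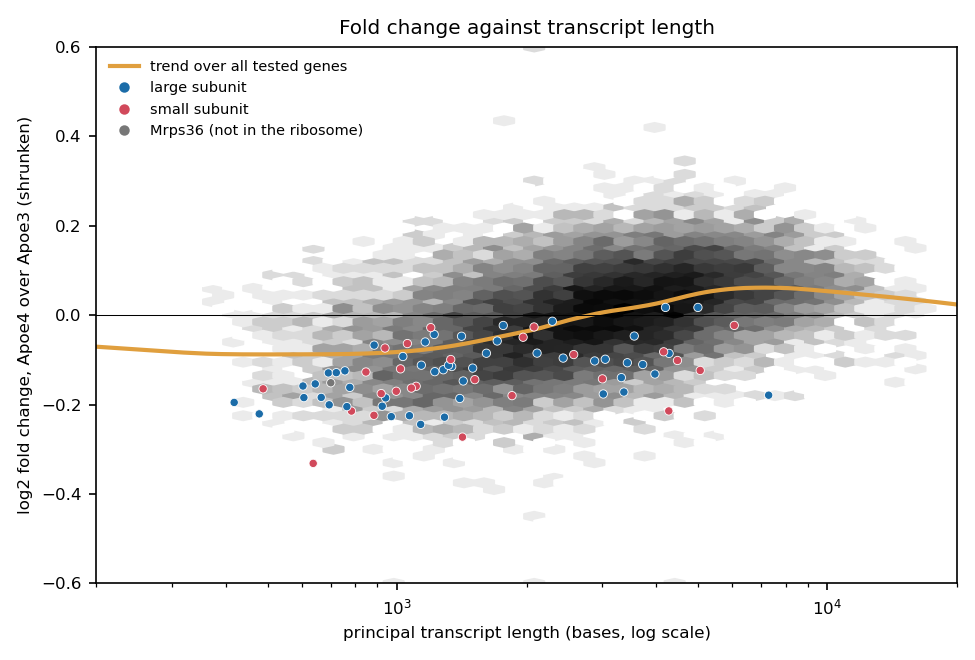
Log2 fold change of Apoe4 over Apoe3 per the authors' deposited table against the length of the principal transcript in bases (log scale). Coloured points are the 77 members, grey hexagons count all tested genes (values past 0.6 in size are drawn at the edge), and the line is the trend over all tested genes; most members lie below the line, 67 of 77.

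Ribosomal subunits that carry other symbols, and so fall outside the naming rule, had similar values. Of these 6 genes, 0 passed the adjusted test, 2 were lower at an unadjusted p under 0.05, 6 had negative folds and the median was -0.16 per the authors' deposited table. Over all tested genes, 5.76% were lower at that unadjusted p. Ict1, a peptidyl-tRNA hydrolase built into the large subunit and now called Mrpl58, stood at -0.17 (adjusted p = 0.464), Chchd1 at -0.19 (adjusted p = 0.468) and Gadd45gip1 at -0.16 (adjusted p = 0.514) in that table. Dap3, a GTP-binding protein of the small subunit, was at 0.00 per the authors' deposited table (adjusted p = 0.995). Its approximate 95% interval without shrinkage was -0.12 to 0.11.

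Among genes that build, feed or use this ribosome, none passed the adjusted test in either direction. Counts at an unadjusted p under 0.05 in these lists stand beside 5.76% lower and 4.54% higher over all tested genes. Assembly factors were at a median of -0.07 over 27 genes per the authors' deposited table, with 20 negative, 5 lower and 0 higher at an unadjusted p under 0.05. The smallest p there belonged to Rpusd4, a pseudouridine synthase of mitochondrial ribosomal RNA, at -0.28 (adjusted p = 0.160 per the authors' deposited table), Trub2 of the same enzyme class at -0.19 (adjusted p = 0.313) and C1qbp, a matrix protein that binds RNA, at -0.17 (adjusted p = 0.377). Translation factors had a median of -0.04 over 18 genes, 13 of them negative and 0 past an unadjusted p of 0.05, with Gatc at -0.10, the elongation factor Tufm at -0.08 and Guf1 at -0.11 per the authors' deposited table (adjusted p from 0.678 to 0.716). Genes for transcription of mitochondrial DNA and for processing of its RNA had a median of -0.06 over 25 genes, 15 of them negative and 0 past an unadjusted p of 0.05, and Fastk, Ptcd2 and Hsd17b10 were at -0.17, -0.13 and -0.14 (adjusted p from 0.493 to 0.574, authors' deposited table).

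Protein import, which brings ribosomal proteins into the organelle, came closest to the members among these lists. Its 21 genes had a median of -0.10 per the authors' deposited table, 19 were negative, and 4 were lower and 0 higher at an unadjusted p under 0.05. They included Timm23 at -0.18, Timm9 at -0.19 and Timm8b at -0.19 per the authors' deposited table (adjusted p from 0.425 to 0.462). Mitochondrial chaperones and proteases, listed with the prohibitins, had a median of -0.03 over 15 genes, with 2 lower and 0 higher at an unadjusted p under 0.05. There Phb2 and Phb, the prohibitins of the inner membrane, were at -0.19 and -0.16 and the protease Yme1l1 at 0.14 per the authors' deposited table (adjusted p from 0.413 to 0.487). Citrate cycle enzymes, pyruvate dehydrogenase subunits and outer-membrane channels were listed together as a gauge of mitochondrial mass. These 14 genes had a median of -0.04, with 9 negative and 5 positive. At an unadjusted p under 0.05, 2 of them were lower and 0 higher. Mdh2, Idh3a and Vdac3 were at -0.17, -0.13 and -0.10 per the authors' deposited table (adjusted p from 0.256 to 0.562).

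A list of transcription regulators, which also holds stress-response factors, had a median near that of all genes. Over 15 regulators the median was -0.01 per the authors' deposited table, 8 were negative, and 1 was lower and 0 higher at an unadjusted p under 0.05. Over all tested genes, 5.76% were lower and 4.54% higher at that unadjusted p, and 1 regulator lower is near that share. That 1 gene was Ddit3, a factor of the stress response, at -0.20 (adjusted p = 0.359), and next were Atf4 at -0.15 (adjusted p = 0.552) and Nrf1 at -0.08 (adjusted p = 0.717), all per the authors' deposited table. Gabpa, the DNA-binding part of the GABP complex, stood at 0.06 per the authors' deposited table (adjusted p = 0.849). Messages of mitochondrial DNA, which this ribosome reads, were searched by symbol and 0 matched, so they were not analysed here.

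With the length trend subtracted, the gap between the members' median and that of each of these lists became smaller. Protein import genes then had a median of -0.08, the same as the members, with 2 of 21 lower and 0 higher at an unadjusted p under 0.05. Subunits under other symbols were at -0.09, with 0 of 6 lower. Assembly factors were at -0.03 with 3 of 27 lower, translation factors at -0.02 with 0 of 18 lower, and genes for transcription and RNA processing at -0.03 with 0 of 25 lower. Chaperones and proteases were then at 0.01 and the regulators at 0.01, with 0 of 15 lower in each. Citrate cycle enzymes, pyruvate dehydrogenase subunits and channels were at -0.02, with 2 of 14 lower and 1 higher. Over all genes, 3.40% were lower and 3.68% higher by this measure.

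**Figure D4:**
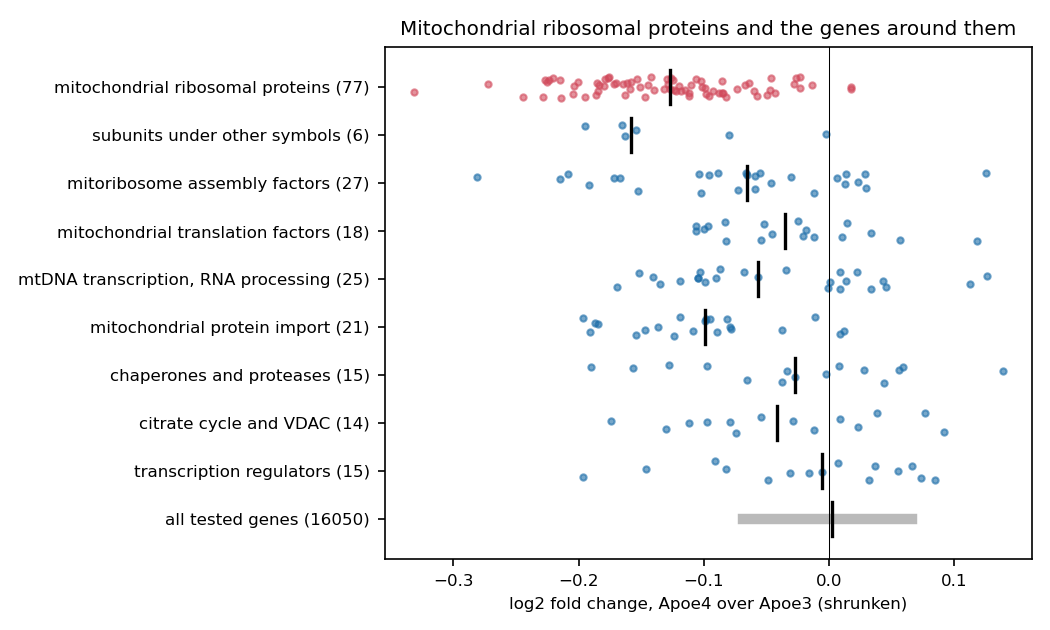
Log2 fold changes of Apoe4 over Apoe3 per the authors' deposited table for the 77 members (top) and for the lists around them, with the number of tested genes in parentheses. Points are genes, black ticks are medians, and the grey bar at the bottom spans the quartiles of all tested genes; the members' median is -0.13 and that of the transcription regulators -0.01.

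Markers of the cell types of the tissue were read beside the members. Mature neuron markers had a median of -0.05 over 8 genes (6 negative, 0 passed), supporting cell markers -0.08 over 7 (6 negative, 0 passed) and macrophage markers -0.05 over 8 (6 negative, 0 passed) per the authors' deposited table. Basal cell markers were at 0.01 over 8 genes and respiratory ciliated cell markers at 0.06 over 7, with 0 passed in each. By p, the first markers of mature neurons were Stoml3 at -0.13, Ano2 at -0.11 and Gng13 at -0.12, and those of supporting cells Hes1 at -0.24, Cyp2g1 at -0.12 and Sec14l3 at -0.08 (adjusted p from 0.161 to 0.689, authors' deposited table). The first macrophage markers were Aif1 at -0.22, C1qb at -0.15 and Cd68 at -0.11, and the first basal cell markers Krt5 at 0.14, Mki67 at -0.13 and Neurod1 at 0.06 (adjusted p from 0.439 to 0.864, authors' deposited table). Ciliated cell markers began with Dnah5 at 0.14, Foxj1 at 0.10 and Dnah11 at -0.12, and muscle markers with Mylpf at -0.20, Atp2a1 at -0.11 and Acta1 at 0.00 (adjusted p from 0.470 to 0.995, authors' deposited table). Of the erythroid markers, 3 are given here and fell, with Alas2 of haem synthesis at -0.46 (adjusted p = 0.00337), Slc4a1 at -0.27 (adjusted p = 0.00509) and Car1 at -0.25 (adjusted p = 0.0171) per the authors' deposited table. With the length trend subtracted the call of Car1 was lost (adjusted p = 0.181), and Alas2 and Slc4a1 passed (adjusted p = 0.0166 and 7.57e-04). The 4 globin genes of the same list are listed at 0. Alas2, Slc4a1 and Car1 had mean normalized counts from 14.4 to 164, below the 196 of the lowest member. The part of cell composition in the members' values was not tested.

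Letters of the ETS, NRF1 and YY1 motifs stood in more members than in tested genes as a whole. A promoter was matched by symbol in the RefSeq table (GRCm38.p6, 250 bases before to 50 after the start) for 68 of the 77 genes. Mrpl4, Mrpl13, Mrpl15, Mrpl19, Mrpl38, Mrpl54, Mrps28, Mrps34 and Mrps35 are named only. With both strands searched, the ETS letters CCGGAAG were present in 25 of 68 members (36.8%), against 16.9% of 12555 tested genes and 9.93% of all 27025 genes with a promoter. The NRF1 core letters TGCGCA were present in 20 members (29.4%), against 13.8% of tested and 8.79% of all genes, and the YY1 core letters AAGATGG in 13 (19.1%), against 7.63% and 7.28%. TATA box letters (TATAAA) were present in 5 members (7.35%), against 10.9% of tested and 15.7% of all genes, and E-box letters (CACGTG) in 5 (7.35%), against 10.6% and 8.09%. Letter matches are not binding sites, and promoters of members and tested genes had like GC content (median 58.0% and 59.7%).

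The folds were also read by motif. The 43 members with an ETS, NRF1 or YY1 match had a median log2 fold change of -0.13 per the authors' deposited table, and the 25 without any had -0.12. By motif, the medians were -0.16 with and -0.12 without the ETS letters, -0.13 with and -0.14 without the NRF1 letters, and -0.17 with and -0.13 without the YY1 letters. These differences were not tested.

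Some of these genes start back to back with another gene, and the share over all tested genes was not computed. In GENCODE vM21, 32 of the 77 had a protein-coding gene on the other strand whose outermost start lay within 1000 bases, pointing away. In 30 cases the partner was no member, and all 30 of those members had negative folds, with a median of -0.13 per the authors' deposited table. Their partners had a median of -0.03, 19 negative and 11 positive, and 25 of the 30 members stood below their partner. The partners' transcripts were longer, at a median of 2714 bases against 1339 for the members. Some pairs overlap at their annotated starts, such as Mrpl48 and Rab6a by 891 bases, so reads there can be uncertain. Mrps18c and Helq, a DNA helicase, start 29 bases apart and stood at -0.33 and -0.05 per the authors' deposited table (adjusted p = 0.0251 and 0.894). Mrpl32 and Psma2, a proteasome subunit, start 75 bases apart and stood close together at -0.18 and -0.19 there. Mrps12 and Sars2, the mitochondrial seryl-tRNA synthetase, start 172 bases apart and stood at -0.22 and -0.13 in that table. The largest opposite step was that of Mrps18b and Ppp1r10, a regulator of protein phosphatase, at -0.16 and 0.24 (adjusted p = 0.583 and 0.121, authors' deposited table). No difference within a pair was tested, since the errors of 2 genes in the same libraries are not independent.

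Of the 30 partners, 1 passed the adjusted test, and it had the smallest p of all genes in the table. Mrpl44 (chromosome 1, 79776018 to 79781445), a mitochondria-specific protein with a fold like that of RNase III, shares its start with Wdfy1, which encodes an endosomal adaptor of Toll-like receptors. Their first bases overlap by 125 on opposite strands. In the authors' deposited table Wdfy1 fell by 2.26 on the log2 scale with a standard error of 0.06 (adjusted p = 4.76e-294), whereas Mrpl44 stood at -0.15 with a standard error of 0.07 (adjusted p = 0.439), near the middle of its family. The approximate 95% interval of Mrpl44 without shrinkage was -0.32 to -0.01, and that of Wdfy1 was -2.63 to -2.36. Whether the authors' counting used strand is not given in the sources used here, so reads in the shared bases could have been dropped or counted for either gene.

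The family also holds 1 head-to-head pair of its own, Mrpl46 in the large and Mrps11 in the small subunit. In RefSeq (GRCm38.p6) the 41 bases between their start sites are those at chr7:78783090-78783130, shown on the strand of Mrps11, with a GC content of 73.2%.
Mrpl46 and Mrps11: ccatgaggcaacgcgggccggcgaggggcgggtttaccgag
Mrpl46 stood at -0.24 with a standard error of 0.09 and Mrps11 at -0.06 with a standard error of 0.10 per the authors' deposited table. Their approximate 95% intervals without shrinkage, -0.52 to -0.10 and -0.40 to 0.21, overlapped, and the difference was not tested. The outermost starts in GENCODE overlap by 412 bases, so reads of the 2 genes can be uncertain there.

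**Figure D5:**
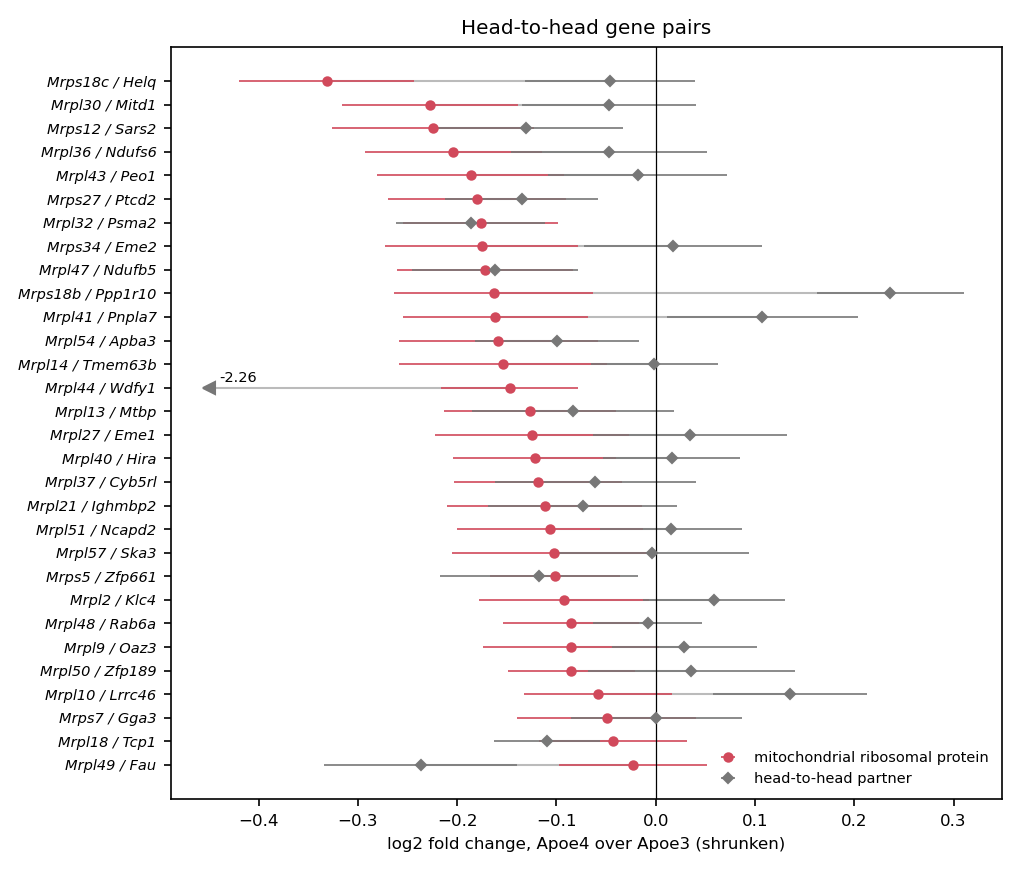
Log2 fold change of Apoe4 over Apoe3 per the authors' deposited table for 30 members (circles) and their head-to-head partners (diamonds), with the deposited standard errors. Pairs are sorted by the member's value, and the partner of Mrpl44, Wdfy1, is drawn as an arrow at the edge with its value of -2.26.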

How the data were processed

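Libraries of poly(A)-selected RNA from olfactory epithelium (6 labelled Apoe4, 4 labelled Apoe3) were sequenced on a NovaSeq, and the submitters' processing notes name STAR, featureCounts, DESeq2 and build GRCm38. The sources used here do not give strandedness, annotation or tool versions. The deposited mean is a signal, counts divided by size factors and averaged over all 10 libraries. The authors' log2 fold changes and errors were shrunk towards 0. The deposited score is their ratio, the Wald statistic, and the deposited p-values are its two-sided normal p-values, adjusted by the Benjamini-Hochberg method over 16050 genes. No count per library was used, so the authors' test replaced the planned count test, at an adjusted p under 0.05. The replicates are biological, per the labels.

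The sign of the folds was set from genes with 1 read in 1 library: the 10 mean levels found fell into 6 of positive and 4 of negative sign, so positive means higher in Apoe4. Unshrunken folds were approximated by taking the prior width as 2 times the largest standard error (0.105) and the smaller of both solutions for the error; approximate group means follow from these and cover no spread over libraries. Lengths were those of the principal coding transcript in GENCODE vM21, found for 99.4% of tested genes (15503 by symbol, 449 by synonym). The trend on length was a lowess curve (fraction 0.3, statsmodels 0.14.6, Python 3.11.15) of the statistic or fold on log2 length. A promoter motif was searched on both strands. Scripts were tested on simulated data. Members and lists were chosen with earlier results of these data known. Named are members past the threshold, the 16 with the smallest p, the 4 highest and 4 lowest folds, the 4 highest and 4 lowest levels per kilobase, and the 3 smallest p of each list; Dap3, Gabpa, members of functional sites and head-to-head pairs were named with values seen. Genes with near-identical pseudogenes may have lost reads in counting. The result of another erythroid marker is not reported here.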

Additional observations from a re-analysis of the deposited data

How the results depend on the processing

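The count of 2 members lower past the threshold was the same with no filter on the mean and without X and Y genes. It was 0 with the length trend removed, 0 with the trend fitted within the members' range of mean counts, 0 with GC content removed as well, and 1 (Mrps9, adjusted p = 0.0447) with the longest annotated transcript as length. The last 3 of these settings were chosen after seeing the data. The 22 members lower at an unadjusted p under 0.05 became 11, 11, 12 and 12 in the same order. The median of -0.127 became -0.0823, -0.0631, -0.0840 and -0.0927 in that order, -0.166 with unshrunken folds and -0.127 without Mrps36, and -0.130 centred on the median of all genes. Negative folds numbered 64 to 75 in all settings run, and 0 members were higher in any. For 20 named members, 113 of 120 gene and setting pairs with an adjusted p kept their side of the threshold, and the 7 others were Mrps9 and Mrps18c under length trends; the sign turned in 3 members, Mrpl15, Mrpl19 and Mrpl39, none of them called. No paired analysis was possible because the table holds no values per library, and leaving out single libraries, another count test and a count filter were not run for the same reason. At these errors the smallest unshrunken log2 change that could pass was about 0.25 to 0.65, with a median of 0.41, a level lower by 24.6%. Changes of the size of the family's median were therefore not detectable gene by gene.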

Other observations

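Besides Mrpl44 and Wdfy1, the members nearest to an autosomal gene that changed are given here. How many of all tested genes lie as close was not computed. Next by distance came Mrpl3, the counterpart of a bacterial protein near the peptidyl transferase centre, 0.049 Mb from Nudt16, an RNA decapping enzyme. Nudt16 fell by 0.30 (log2, adjusted p = 0.0208), whereas Mrpl3 stood at -0.13 (adjusted p = 0.578), per the authors' deposited table. Mrpl12 lies 0.240 Mb from Cbr2, a carbonyl reductase, and the values were -0.11 for Mrpl12 and -0.26 for Cbr2 (adjusted p = 0.705 and 0.0421, authors' deposited table). Mrps12, at -0.22, lies 0.271 Mb from Lrfn1, a synaptic adhesion protein, which rose by 0.43 (adjusted p = 0.00674) per the authors' deposited table. Mrpl22 and Mrpl55, at -0.13 and -0.18 per the authors' deposited table, lie 0.371 and 0.422 Mb from the odorant receptor genes Olfr328 and Olfr315, which fell by 0.43 and 0.49. Mrps30, at -0.14, lies 0.948 Mb from Nnt, the mitochondrial transhydrogenase that C57BL/6J mice lack in intact form, which fell by 0.65 (adjusted p = 7.91e-09) per the authors' deposited table.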
